A study of Mus musculus with 2 samples.

Results

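Ppara and 8 genes that PPARα is known to regulate were followed in the liver of apoE-KO mice: Ehhadh, Hsd17b4, Acaa1a, Acaa1b, Abcd3, Crat, Cyp4a10 and Cyp4a14. They were chosen by gene name among the non-control spots of the arrays, so that 9 of the 27962 gene names on the array were taken. The 9 genes are covered by 15 probes, of which 14 are reported. The comparison asked whether the targets followed Ppara when Chol was added to the diet.

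All mice were male, of the strain C57BL/6 and of the genotype apoE-KO, so that the diets share the deletion and no mouse with apolipoprotein E was compared. From 10 weeks of age they received normal chow, or that chow with 1.25% Chol added (the high-Chol diet), for 1 week. RNA of the liver was hybridised to one-colour Agilent arrays, 3 for each diet, which the study's methods describe as independent experiments. The number of animals behind an array is not given in the sources used here, so the p-values measure only the spread between these arrays.

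PPARα is a nuclear receptor that is activated by fatty acids. Bound to its partner RXR, it raises the transcription of genes for fatty acid uptake and oxidation, and the liver relies on it during fasting. Its classic target genes in mouse liver encode the peroxisomal β-oxidation pathway, which shortens long fatty acids and leaves hydrogen peroxide, and the Cyp4a enzymes, which hydroxylate fatty acids at the omega end. The array reads mRNA, not the activity of the receptor or of the enzymes.

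Signals are given as log2 of the background-subtracted intensity on a scale where the 75th percentile of an array is 0. A value of a gene is thus relative to the other genes of its array, and levels of different genes are not compared. On the arrays, 50.5 to 67.2% of the non-control spots were well above background, with the lowest share on normal chow array 1. All 9 genes were well above background on all 6 arrays. Slide 1 held the 3 normal chow arrays and high-Chol array 1, and slide 2 held high-Chol arrays 2 and 3. Before scaling, the 75th percentile of the signal was 271 to 373 on slide 1 and 762 to 799 on slide 2. The headers name version 9.5 of the feature extraction software on slide 1 and 9.1 on slide 2. Slide and diet are thus partly confounded. Of 16727 genes tested with limma, 450 (2.69%) were called higher and 38 (0.227%) lower on the high-Chol diet at an adjusted p below 0.05. All genes tested had a median log2 difference of -0.02.

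None of the 9 genes was among the genes called. At an unadjusted limma p below 0.05 there were 2 of 9, Ppara (lower) and Ehhadh (higher). Over the whole array, 1477 of the 16727 genes tested were lower and 2064 higher at that threshold. The 2 of 9 is thus near the share of the whole array, and the same counts are the background of the lists below. Ppara was lower by a log2 difference of -0.94, whereas 6 of its 8 targets were higher and 2 were lower, with a median log2 difference of 0.21 that was -0.03, with 4 lower, after median scaling.

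Several genes have more than 1 probe, and the sequences of 3 probes inside such genes are shown because probes of 1 gene gave different values below, with signs that depended on the scaling. All are 60 bases long and are given 5′ to 3′ as listed in the array files, with positions on mm7 from the array annotation. The first is annotated to Acaa1a alone (chr9:119026729-119027949, plus strand) and spans 1221 bases of the genome, so that it crosses at least 1 intron. The second lies in Cyp4a10 (chr4:114901988-114902047, plus strand) without a gap, and the third in the same gene (chr4:114901279-114901760, plus strand, spanning 482 bases).
Acaa1a A_52_P155990: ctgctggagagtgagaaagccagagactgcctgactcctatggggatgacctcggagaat
Cyp4a10 A_52_P340136: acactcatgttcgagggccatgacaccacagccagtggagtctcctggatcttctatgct
Cyp4a10 A_52_P6588: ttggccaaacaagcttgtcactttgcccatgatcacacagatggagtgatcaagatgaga

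Ppara encodes the receptor itself. Its probe lies at chr15:85883890-85883949 on the plus strand of mm7 and is annotated to the Ppara transcript. The log2 signal was 4.0, 4.65 and 4.54 for arrays 1, 2 and 3 of normal chow, against 3.26, 3.23 and 3.89 for those of the high-Chol diet. All 3 high-Chol arrays lay below all 3 normal chow arrays, although high-Chol array 3 came close to normal chow array 1, as the plot of signals by array shows. Such a separation towards lower values was found for 14.0% of the 16435 genes with a value on every array, and towards higher values for 11.9%. The mean was 4.39 ± 0.35 (SD, n = 3) for normal chow, against 3.46 ± 0.37 (SD, n = 3) for the high-Chol diet. The difference of -0.94 ± 0.26 (SE) is a signal 1.91-fold lower, with a 95% interval of -1.55 to -0.33 and a limma adjusted p of 0.121. An exact two-sided permutation test over the 20 splits of the 6 arrays gave p = 0.1, the smallest that 3 against 3 arrays allow. In the order of log2 differences from the lowest, Ppara took rank 262 of the 16727 genes.

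Ppara was spotted 10 times on each array, and 9 spots were used on normal chow array 1 because 1 was marked as an outlier. The spots of an array had an SD of 0.04 to 0.12 on the log2 scale, against 0.35 and 0.37 between the arrays of a diet. The spread between arrays was thus larger than that between spots of the same RNA. On slide 1, the difference between high-Chol array 1 and the mean of the normal chow arrays was -1.14. With slide as a block the difference was also -1.14, at a limma adjusted p of 0.429 (0.0533 to 1.00 over all alternatives tried), since slide 2 holds no normal chow array.

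**Figure D1:**
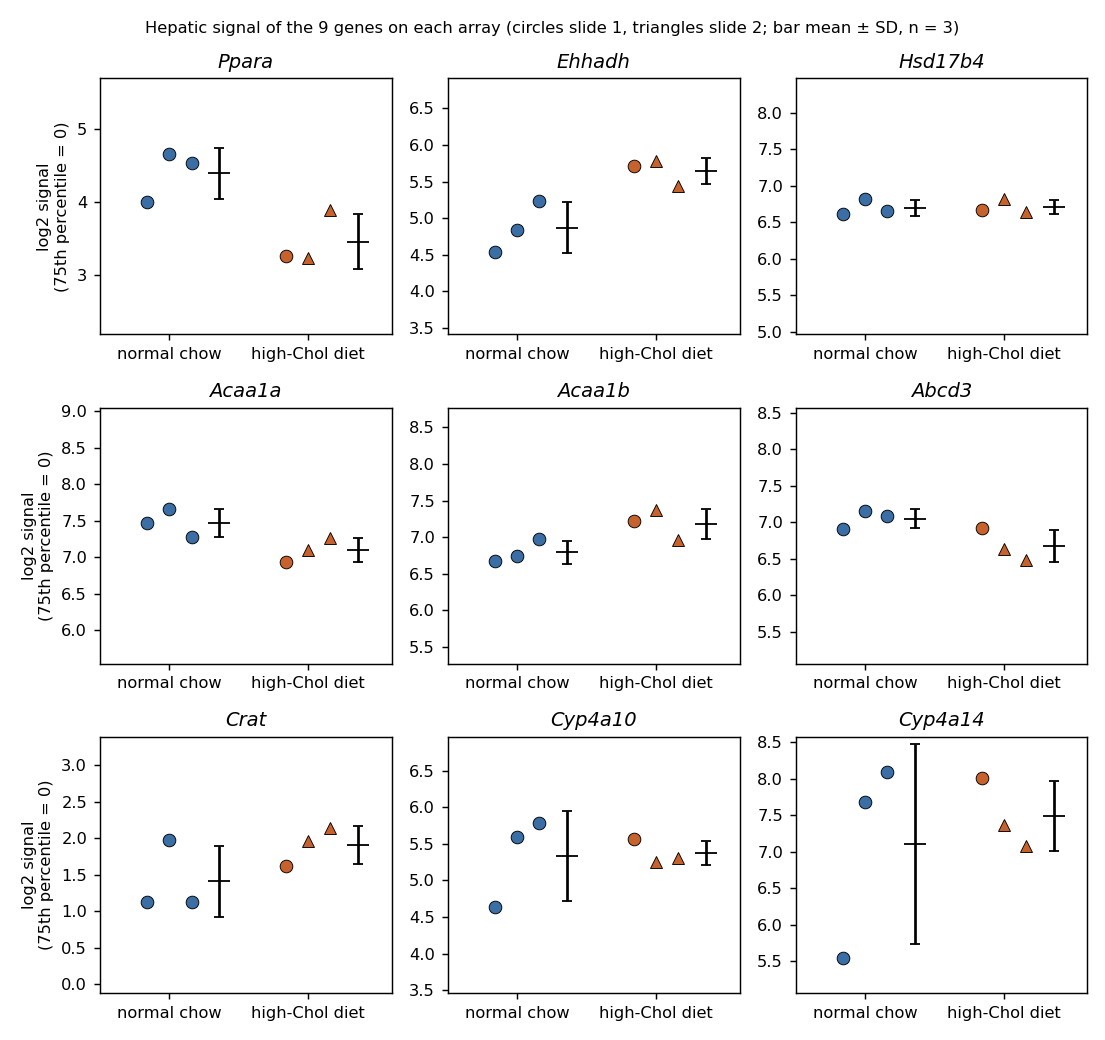
Log2 signal of each of the 9 genes on the 6 arrays, relative to the 75th percentile of the array, with normal chow in blue and the high-Chol diet in orange. Circles are arrays of slide 1 and triangles arrays of slide 2, the bars are mean ± SD of 3 arrays, and every panel spans the same number of log2 units. The diets separate for Ppara, lower on the high-Chol diet, and for Ehhadh, higher on it, and only just for Acaa1a.

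Ehhadh, the bifunctional enzyme that carries out the hydration and dehydrogenation steps of peroxisomal β-oxidation, ran opposite to Ppara. Its log2 signal was 4.54, 4.84 and 5.23 for normal chow, against 5.71, 5.78 and 5.44 for the high-Chol diet. The 3 high-Chol arrays were above the 3 normal chow arrays, with normal chow array 1 the lowest of all. Mean signals were 4.87 ± 0.35 (SD, n = 3) for normal chow, against 5.64 ± 0.18 (SD, n = 3) for the high-Chol diet. The difference was 0.78 ± 0.21 (SE), or 1.71-fold higher, with a 95% interval of 0.27 to 1.28 and a limma adjusted p of 0.123. The difference on slide 1 was 0.84. The probe lies at chr16:21411280-21411339 on the minus strand of mm7.

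Hsd17b4 encodes the other peroxisomal enzyme of these steps, which also acts on branched and bile acid side chains. The log2 signal was 6.61, 6.81 and 6.66 for normal chow, against 6.66, 6.82 and 6.65 for the high-Chol diet. Here the diets overlapped fully, and the arrays of a diet spanned only 0.20 and 0.18 log2 units. The difference was 0.02 ± 0.15 (SE), with a 95% interval of -0.33 to 0.36 and a limma adjusted p of 0.948. It is the narrowest interval among the 9 genes, and its sign turned with the scaling, at -0.22 after median scaling.

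Acaa1a and Acaa1b encode the peroxisomal thiolases, which cleave acetyl-CoA from the shortened chain in the last step of the pathway. For Acaa1a, the brightest probe gave 7.47, 7.66 and 7.28 for normal chow, against 6.93, 7.10 and 7.26 for the high-Chol diet. The high-Chol arrays were lower, but the highest of them, array 3, was barely below the lowest normal chow array. The difference was -0.37 ± 0.17 (SE), or 1.29-fold lower, at a limma adjusted p of 0.262 and with a 95% interval of -0.77 to 0.03. For Acaa1b, whose probe lies at chr9:118828412-118828471 on the minus strand, the signal was 6.67, 6.74 and 6.97 for normal chow, against 7.22, 7.37 and 6.95 for the high-Chol diet. High-Chol array 3 lay inside the normal chow values, and the other two lay above them. The difference was 0.38 ± 0.17 (SE), or 1.30-fold higher, at a limma adjusted p of 0.254 and with a 95% interval of -0.03 to 0.79.

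A further probe of Acaa1a, the one shown above, did not have the sign of the brightest one on this scale, but did after median scaling (-0.12 beside -0.61). Another Acaa1a probe is not reported here, so the probes given do not settle the sign of the gene. The probe shown above gave 5.30, 5.33 and 5.56 for normal chow, against 5.82, 5.56 and 5.15 for the high-Chol diet, with a difference of 0.11 ± 0.21 (SE). The diets overlapped, and high-Chol array 3 was the lowest of the 6. The brightest Acaa1a probe lies at chr9:119030443-119030499, downstream of it on the plus strand.

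**Figure D2:**
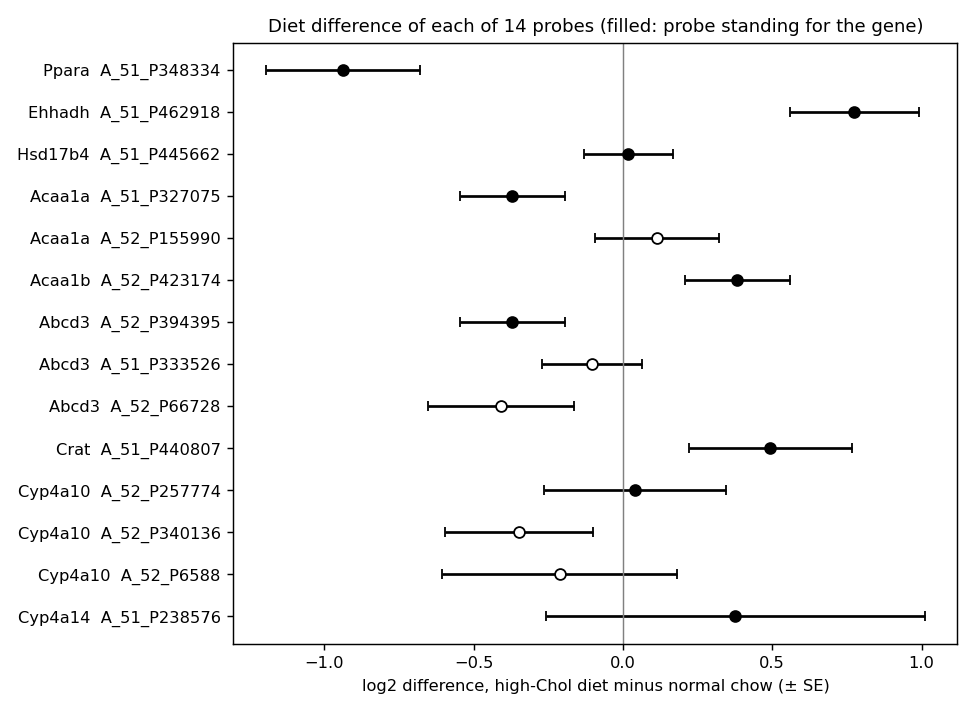
Log2 difference between the diets, high-Chol minus normal chow, for each of 14 probes, with bars of ± 1 SE from limma. Filled points are the brightest probe, which stands for the gene. The Acaa1a probes plotted lie on both sides of 0, at -0.37 and 0.11, and those of Cyp4a10 as well, although after median scaling all the plotted probes of these genes are below 0. Another Acaa1a probe is not plotted, so this does not speak for every probe of that gene. The 3 Abcd3 probes are below 0 on this scale.

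Abcd3 encodes the most abundant transporter of the peroxisomal membrane, which carries acyl-CoA into the organelle. Its log2 signal was 6.91, 7.15 and 7.09 for normal chow, against 6.92, 6.64 and 6.48 for the high-Chol diet. High-Chol arrays 2 and 3, both of slide 2, were below all normal chow arrays, while high-Chol array 1 was level with normal chow array 1. The difference was -0.37 ± 0.17 (SE), or 1.29-fold lower, with a 95% interval of -0.78 to 0.04 and a limma adjusted p of 0.262. On slide 1 it was -0.13. The other probes differed by -0.10 ± 0.17 (SE) and -0.41 ± 0.24 (SE), and both overlapped between the diets. On slide 1 these were 0.0052 and 0.042, so that their negative signs rest on the slide 2 arrays.

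Crat, carnitine acetyltransferase, passes short acyl groups from CoA to carnitine so that they can leave the organelle. Its probe lies at chr2:30409475-30409534 on the minus strand. The log2 signal was 1.13, 1.97 and 1.13 for normal chow, against 1.62, 1.96 and 2.14 for the high-Chol diet. Normal chow array 2 stood among the high-Chol arrays, and the other two normal chow arrays lay below them. The difference was 0.49 ± 0.27 (SE), or 1.41-fold higher, with a 95% interval of -0.15 to 1.14 and a limma adjusted p of 0.331. It was 0.77 without normal chow array 2 and 0.21 on slide 1.

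Cyp4a10 and Cyp4a14 are the cytochromes P450 that start omega oxidation and are known as very inducible targets of PPARα in mice. For Cyp4a10, the log2 signal was 4.64, 5.59 and 5.79 for normal chow, against 5.57, 5.26 and 5.31 for the high-Chol diet. Normal chow array 1 was the lowest, and the high-Chol arrays lay between it and the other two. The difference was 0.04 ± 0.31 (SE), or -0.20 after median scaling, with a 95% interval of -0.68 to 0.76 and a limma adjusted p of 0.945. Its other probes gave -0.35 ± 0.25 (SE) for the ungapped one shown above and -0.21 ± 0.39 (SE) for the gapped one, again with overlap. On slide 1 these were 0.077 and 0.51, so that the negative signs rest on the slide 2 arrays.

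For Cyp4a14, the log2 signal was 5.55, 7.69 and 8.09 for normal chow, against 8.01, 7.37 and 7.07 for the high-Chol diet. Normal chow array 1 lay well below the other 5 arrays, and the normal chow arrays spanned 2.54 units against 0.94 on the high-Chol diet. The difference was 0.38 ± 0.64 (SE), with a 95% interval of -1.14 to 1.89 and a limma adjusted p of 0.746. Without normal chow array 1 it was -0.40, and that of Cyp4a10 was -0.31, so that the sign of both rests on this array. A change of Cyp4a14 of 2-fold in either direction lies inside the interval, and none was detectable with these arrays.

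Without normal chow array 1, 5 of the 8 targets were lower and the median log2 difference of the targets was -0.17, whereas Ppara was lower by a difference of -1.14 and Ehhadh higher by 0.61. With that array the corresponding count was 2 of 8. Hsd17b4, at -0.02, and the Cyp4a genes were those that turned.

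Whether the targets followed Ppara was examined within arrays, by taking each target's log2 signal minus that of Ppara and comparing the diets. The change of this quantity was 1.71 ± 0.35 (SE) for Ehhadh, 1.43 ± 0.26 for Crat, 1.32 ± 0.37 for Acaa1b, 1.31 ± 0.75 for Cyp4a14, 0.98 ± 0.31 for Cyp4a10, 0.96 ± 0.30 for Hsd17b4 and 0.57 for both Acaa1a and Abcd3 (SE 0.26 and 0.35). A positive value means that the target was less lowered than Ppara or was higher. All 8 values were positive, as were those of 98.5% of 16434 genes taken minus Ppara, so that this count restates the difference of Ppara. The median of those genes was 0.92. For Ehhadh, Crat, Acaa1b, Cyp4a10 and Hsd17b4, the 3 high-Chol arrays lay above the 3 normal chow arrays (exact permutation test, two-sided, p = 0.1, the smallest possible, and 0.16 after Benjamini-Hochberg adjustment over 8 targets). Of all genes taken minus Ppara, 58.6% separated in this way, so that 5 of 8 is near the share of the whole array. For Acaa1a, Abcd3 and Cyp4a14 the diets overlapped, with an exact permutation p = 0.2.

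The likeness of profiles over the 6 arrays was measured as the root mean square distance between log2 signals after each gene's own mean had been subtracted. Among 14042 genes well above background on all arrays, Acaa1a ranked closest to Ppara of the targets, at rank 987, followed by Abcd3 at rank 2524. Hsd17b4 and Cyp4a10 took ranks 7043 and 7683, near the middle. Acaa1b, Crat, Ehhadh and Cyp4a14 took ranks 11542, 11591, 12837 and 13149, in the last part of the order. The 5 genes closest to Ppara were Foxa3, Ubr2, D930001I22Rik, C230093N12Rik and Gpx6, at distances of 0.07 to 0.11 log2 units, against 0.38 for Acaa1a and 0.92 for Ehhadh. The distance follows the diet difference as well as the spread within a diet, and it is a description of 6 arrays with no test.

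Foxa3, the closest gene, had log2 signals of 1.64, 2.35 and 2.20 for normal chow, against 0.84, 0.77 and 1.63 for the high-Chol diet. As for Ppara, normal chow array 1 was the lowest of its diet and high-Chol array 3 the highest of its own. Its difference was -0.98 ± 0.30 (SE) at a limma adjusted p of 0.145. The other four closest genes differed by -0.90 to -0.81.

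**Figure D3:**
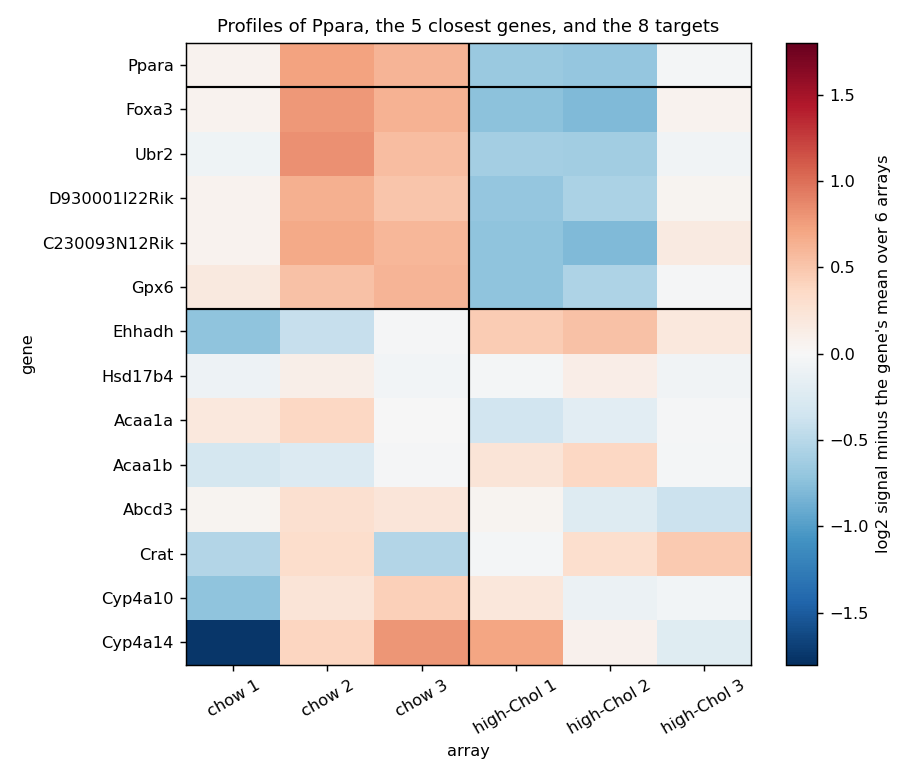
Log2 signal minus the gene's mean over the 6 arrays, with arrays in columns and genes in rows: Ppara, the 5 genes with the closest profile, and the 8 targets. Red is above and blue below the gene's mean. Ppara and the 5 genes are red to pale on normal chow and blue to pale on the high-Chol diet, Ehhadh runs the other way, and Cyp4a14 is darkest blue on normal chow array 1.

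Other genes of the same biology were counted from lists that do not contain the 9 genes. Of 40 further PPARα targets tested, 1 was called lower and 0 higher, 28 had a negative and 12 a positive difference, and their median was -0.17, beside -0.02 for all genes, of which 52.2% had a negative difference. After normexp background correction the median was 0.05, with 17 negative and 23 positive, and after quantile normalization there were 21 and 19. After median scaling it was -0.40, with 33 negative, 7 positive and 2 called lower, where the median of all genes was -0.26. On the main scale the median was -0.085 without normal chow array 2 and -0.28 without normal chow array 1. With all arrays, there were 9 lower and 4 higher at an unadjusted limma p below 0.05, where 1 of the 9, Cyp4a12a, had a value on only 1 high-Chol array. The gene called on the main scale was Creb3l3, a liver transcription factor of the fasting response, which fell by 0.95 on the log2 scale (limma adjusted p = 0.0457). Its signals were 6.11, 6.07 and 6.12 for normal chow, against 5.36, 4.82 and 5.28 for the high-Chol diet, without overlap. The call was lost in many alternatives: 0 genes of this list were called lower after normexp or quantile normalization, with no filter, with slide as a block, on slide 1 only, by the methods' t-test after adjustment, or without any 1 of the arrays other than high-Chol array 1. Without that array 4 were called lower and 3 higher. Cpt1a, which admits long-chain fatty acids to mitochondria, differed by -0.89 ± 0.20 (SE, limma adjusted p = 0.0779) and also did not overlap. At the other end of the list were Cpt1b, the muscle form of that enzyme, at 1.86 ± 0.64 (SE), and Cd36, a fatty acid uptake receptor, at 1.44 ± 0.46 (SE). For both, the higher signals were on slide 2. High-Chol array 1 lay inside the range of the normal chow arrays, at -2.01 for Cpt1b and at 1.64 for Cd36.

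Peroxisomal β-oxidation was covered by 21 further genes, of which 0 were called by limma and 17 had a negative difference, with a median of -0.21. That median was 0.06 after normexp, -0.067 after quantile normalization, -0.12 with slide as a block and -0.44 after median scaling. At an unadjusted limma p below 0.05, 3 were lower and 2 higher. The lowest were Nudt7, a peroxisomal CoA hydrolase, at -0.97 ± 0.29 (SE), and Acox3, an oxidase of branched acyl-CoA, at -0.67 ± 0.20. The highest were Hacl1, which cleaves 2-hydroxy acyl-CoA in α-oxidation, at 0.97 ± 0.29, and Acox2, the oxidase of bile acid intermediates, at 0.66 ± 0.19.

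Of 16 peroxins, the proteins that build peroxisomes, 12 had a negative difference and 0 were called by limma, with 4 lower and 0 higher at an unadjusted p below 0.05. Their median was -0.16. It was -0.047 after normexp, with 9 negative, and -0.40 after median scaling, with 15 negative. Pex26, at -0.99 ± 0.26 (SE), and Pex11a, a PPARα target that promotes peroxisome division, at -0.75 ± 0.25, had the lowest differences. Pex14 had the highest, at 0.31 ± 0.21.

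Of 14 further genes of omega oxidation, 11 had a negative difference and 0 were called by limma, with a median of -0.20. That median was -0.018 after normexp, -0.074 after quantile normalization, -0.088 with slide as a block, -0.42 after median scaling and -0.13 without normal chow array 3 or high-Chol array 2. At an unadjusted limma p below 0.05, 2 were lower and 0 higher, and 1 of the 2 was Cyp4a12a, with its single high-Chol array. Cyp4f13 and Cyp4f14, omega hydroxylases of another subfamily, had the lowest differences among those measured on every array, at -0.51 ± 0.18 (SE) and -0.44 ± 0.26. Aldh3a2, the fatty aldehyde dehydrogenase, and Cyp4f16 had the highest, at 0.22 ± 0.22 and 0.02 ± 0.21. The Cyp4a gene that the array names BC013476, matched to Cyp4a31, gave 5.96, 6.78 and 7.17 for normal chow, against 6.82, 6.32 and 6.30 for the high-Chol diet. Normal chow array 1 was again the lowest, as for Cyp4a10 and Cyp4a14, and cross-hybridisation among these closely related genes was not tested.

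Among 15 other PPAR and RXR receptors and coregulators, 10 were lower, 0 were called by limma and the median was -0.12 (0.07 without normal chow array 2), with 3 lower and 1 higher at an unadjusted p below 0.05. Lpin1, a phosphatidate phosphatase that also acts as a coactivator of PPARα, differed by -2.88 ± 0.74 (SE, limma adjusted p = 0.102). Its signal was 3.92, 6.07 and 6.28 for normal chow, against 3.14, 3.15 and 1.34 for the high-Chol diet, which did not overlap. Ppargc1b, a coactivator of the PGC-1 family, differed by -1.0 ± 0.25 (SE, limma adjusted p = 0.1002). Rxrg, at 0.70 ± 0.28, and Pparg, the adipogenic relative of Ppara, at 0.43 ± 0.23, had the highest differences. Rxra, the main hepatic partner of PPARα, was chosen after its values were seen, with signals of 6.01, 6.04 and 5.95 for normal chow, against 5.5, 5.27 and 5.63 for the high-Chol diet, without overlap (difference -0.53 ± 0.15, limma adjusted p = 0.135).

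**Figure D4:**
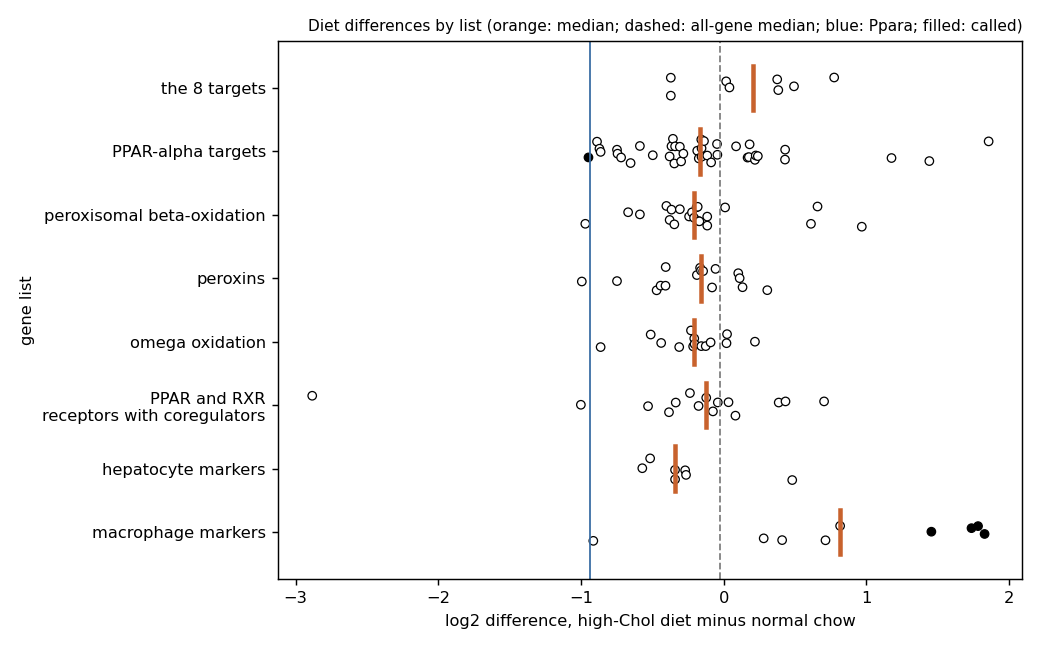
Log2 difference between the diets for each tested gene of the 8 targets and of 7 lists, with the orange bar at the median of a list, the dashed line at the median of all genes (-0.02), the blue line at Ppara (-0.94) and filled points for genes called by limma. The median of the 8 targets is 0.21 (-0.03 after median scaling), those of the 4 lists of oxidation and peroxisome genes lie between -0.21 and -0.16 (2 of them above 0 after normexp), and that of the macrophage markers is 0.82.

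Markers of other cells moved with the diet in these bulk samples. Of 9 macrophage markers tested, 4 were called higher by limma (Ptprc, Cd68, Lyz2 and Marco), 8 of 9 had a positive difference, and the median was 0.82. Their summed level was 6.53 to 6.88 (log2) on normal chow and 7.97 to 8.40 on the high-Chol diet, without overlap. The brightest marker, Lyz2, leads this sum (5.71 to 6.09 on normal chow and 7.21 to 7.93 on the high-Chol diet). Adgre1 had no value on high-Chol array 2 and is missing from the sum of that array. The called markers differed by 1.46 for Ptprc, the leukocyte phosphatase, 1.74 for Cd68, 1.78 for lysozyme Lyz2 and 1.83 for the scavenger receptor Marco. With slide as a block 0 of these markers were called, and their median was 0.71. Likewise 0 were called after normexp, with no filter, or by the methods' t-test after adjustment. With 1 array left out, 1 to 5 were called. Cd163, another scavenger receptor of macrophages, differed by -0.91 ± 0.28 (SE), and Csf1r, the receptor of macrophage colony-stimulating factor, by 0.28 ± 0.18.

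Of 7 hepatocyte markers tested, 6 were lower and 0 were called by limma, with 1 lower and 1 higher at an unadjusted p below 0.05 and a median of -0.34 that was 0.02 after quantile normalization. The lowest were Apoa1, the apolipoprotein of HDL, at -0.57 ± 0.23 (SE), and Tat, tyrosine aminotransferase, at -0.52 ± 0.24, and the highest were Ttr, transthyretin, at 0.48 ± 0.18, and Cyp2e1, at -0.26 ± 0.16. Their summed level was 10.9 to 11.1 (log2) on normal chow and 10.6 to 10.7 on the high-Chol diet, also without overlap. The brightest marker, Alb, leads this sum (9.44 to 9.64 on normal chow and 9.05 to 9.37 on the high-Chol diet). Albumin and the other defining markers of hepatocytes were well above background on every array. The lean of these markers depended on the processing, with 3 lower and 4 higher after quantile normalization, and 4 lower and 3 higher after normexp. A shift from the scaling, fewer hepatocytes in the sample and less RNA per hepatocyte cannot be told apart here. The part of these markers in the differences of Ppara and its targets was not tested.

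The RefSeq table of promoters (GRCm38.p6, 250 bases before to 50 after each gene's start) held windows for 5 of the 9 genes, namely Ppara, Ehhadh, Acaa1a, Acaa1b and Abcd3, 6 windows in all. The half-site AGGTCA of nuclear receptors, searched on both strands, was in 0 of these 6 windows and in 16.3% of all 32851 windows. This says only that these letters are not in these short windows. No promoter is shown for that reason.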

How the data were processed

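RNA of the liver was measured on 6 one-colour Agilent arrays. The authors deposited spot intensity values from which the feature extraction software had subtracted the background (version 9.1 per the submitters' processing notes, 9.5 in the headers of slide 1), and log2 values of probes, averaged by diet in Gene Spring. Control and outlier spots were not used, and repeated spots were averaged. A probe entered when it was well above background on every array of either diet that had a value for it. The brightest probe of a gene was taken. The number of arrays limits the precision. Diets were compared over all genes with limma 3.58.1 (R 4.3.3) and Benjamini-Hochberg adjustment. The test was checked on simulated data with independent noise and no slide effect, a check that says nothing about the slides of the real arrays. Figures were drawn with matplotlib 3.10.9. The rule for naming took all 9 genes and their probes, and from each list the genes called and the 2 highest and 2 lowest differences among genes well above background on every array. Some genes and 1 probe that it names are not reported here. The members and lists were chosen with earlier results of these data known. Symbols follow the array, with list genes matched to older names through RefSeq. Alternatives were background, scaling, filter, probe choice, outliers, slide, each array left out, the prior, the deposited log2 values and the methods' t-test.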

Additional observations from a re-analysis of the deposited data

How the results depend on the processing

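Ppara was lower under all 20 alternatives (log2 difference -1.18 to -0.60, adjusted p 0.0533 to 1.00) and Ehhadh higher under all 20 (0.53 to 1.09). Acaa1b and Crat were higher and Abcd3 lower under all 20. The alternatives of filter, prior and t-test leave these differences unchanged, as does probe choice for a gene with no other probe. Slide as a block and slide 1 only gave the same differences. Agreement of sign under these alternatives is therefore no separate check of direction. No member was called under an alternative with adjusted p-values, and 2 (Ppara, at -0.94, and Ehhadh) passed the methods' t-test at its unadjusted threshold. The median of the targets minus Ppara, 1.15 (0.92 for all genes minus Ppara), was 0.91 to 1.38. Median scaling moved the median of all genes from -0.02 to -0.26, and relative to that median Ppara differed by -0.92 and the targets by 0.23; it gave 331 genes called higher and 73 lower.

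With 1 array left out, Ppara gave -1.15 to -0.81, the target median -0.17 to 0.31, Hsd17b4 -0.039 to 0.077, Cyp4a10 -0.31 to 0.26 and Cyp4a14 -0.40 to 0.87, and 0 members were called. The sign turned for Cyp4a14 and Cyp4a10 without normal chow array 1, and for Cyp4a10 also without high-Chol array 1 (-0.05). Hsd17b4 was -0.22 after median scaling, -0.029 with slide as a block or on slide 1 only, and -0.22 in the deposited values. Cyp4a10 was -0.20 after median scaling and in the deposited values, and -0.17 as the mean of its probes, by which Acaa1a was 0.029.

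Against 488 genes called over the array, limma called 0 after normexp (39 lower and 267 higher at an unadjusted p below 0.05), 26 with no filter, 11 with slide as a block, 3 on slide 1 only and, with 1 array left out, 42 (without normal chow array 2) to 3939 (without high-Chol array 1). The methods' t-test gave 2791 at its unadjusted threshold and 5 after Benjamini-Hochberg adjustment. After normexp the medians of the further PPARα targets and of peroxisomal β-oxidation were 0.05 and 0.06, and after quantile normalization that of the hepatocyte markers was 0.02. The cause of these shifts was not tested. On slide 1 the lone high-Chol array is assumed to vary like the normal chow arrays.

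No paired analysis was possible because the array files carry no replicate number.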
